A study of Mus musculus with 5 samples.

Results

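The 7S, 7SK, RNase P and Y RNAs are short non-coding RNAs made by RNA polymerase III, and 7 genes of this kind were taken here out of 55147 gene symbols in the expression table: Rn7s1 and Rn7s2 (both 7SL RNA), Rn7sk (7SK RNA), Rmrp (the RNA of RNase MRP), Rpph1 (the RNA of RNase P), and the Y RNA genes Rny1 and Rny3. They were chosen by name for their high TPM in these samples, with the Y RNAs as further members of the class, so the levels and ranks given for them are a description. The samples were 3 of WT mouse embryonic stem cells, the E14Tg2a parent line, and 2 of C3G null cells, labelled C3G-/-, which were made in the same line by CRISPR knock-in of a puromycin cassette in place of exons 2 to 4 of the C3G gene, Rapgef1. Both groups were grown untreated on gelatin in medium with serum and LIF, and total RNA was taken. The null lines were grown from single resistant colonies, and the paper calls the 3 WT and 2 null samples independent. The labels do not say which line gave which sample or whether samples of a group were separate cultures. The p-values rest only on the spread between these samples, pooled across genes, and this spread may be technical. Whether ribosomal RNA was depleted, poly(A) RNA was selected or the libraries kept strand is not given in the sources used here.

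The values are TPM, a length-scaled unit whose sum is fixed for every sample, while sequencing depth is unknown and counting error cannot be stated. At the short end the values depended on length, as no transcript under 122 bases had a value. Levels of the short members and of longer RNAs can thus be compared only with caution. Rapgef1 measured 11.56, 10.31 and 9.64 TPM in the WT samples and 3.92 and 5.55 TPM in the null samples, and the null samples lay below the WT samples. This is the sum over all transcripts of the gene, also those outside the replaced exons, and its log2 difference was -1.02 (adjusted p = 0.000304 from limma) and -0.41 (adjusted p = 0.00444 from limma) after median-of-ratios scaling, a division by one factor per sample that centres the typical gene. All 10 of 10 ES cell markers had at least 1 TPM in all 5 samples, and their summed level was 2262 to 2379 TPM in WT and 1785 to 2337 TPM in C3G null. Of 8 fibroblast markers 6 were under 1 TPM in all samples, with sums of 4.15 to 5.98 TPM in WT and 1.07 to 1.50 TPM in null, and of 8 primitive endoderm markers 6 were under 1 TPM, with sums of 3.33 to 4.20 TPM in WT and 4.78 to 7.92 TPM in null. Their part in the results was not tested.

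7SL RNA is the scaffold of the signal recognition particle, which binds signal peptides as they leave the ribosome and brings the ribosome to the endoplasmic reticulum. 7SK RNA holds the elongation factor P-TEFb in an inactive complex with HEXIM proteins and so limits the release of paused RNA polymerase II. RNase P removes the leader from precursor tRNA, the related RNase MRP cuts precursor ribosomal RNA, and the Y RNAs are bound by the Ro60 and La proteins.

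The sequences below are those of the GENCODE M21 annotation of GRCm38, written as DNA from 5′ to 3′. They show a pair of nested gene models and a pair of RNAs below the length at which values began. They also show a protein-binding motif, on which no measurement here depends. In the longer Rmrp model (chr4:43492783-43493063, minus strand) the capitals mark the ends that the shorter model lacks. In Rn7sk (chr9:78175303-78175633, minus strand), of which the first 110 bases are shown, they mark GATC, a motif at which HEXIM proteins are known to bind 7SK. Every copy is marked, and which copies are bound was not tested. In Rny1 (chr6:47788069-47788180, minus strand) and Rny3 (chr6:47781624-47781725, plus strand) they mark the run of T at the 3′ end, the known stop signal of RNA polymerase III.
Rmrp: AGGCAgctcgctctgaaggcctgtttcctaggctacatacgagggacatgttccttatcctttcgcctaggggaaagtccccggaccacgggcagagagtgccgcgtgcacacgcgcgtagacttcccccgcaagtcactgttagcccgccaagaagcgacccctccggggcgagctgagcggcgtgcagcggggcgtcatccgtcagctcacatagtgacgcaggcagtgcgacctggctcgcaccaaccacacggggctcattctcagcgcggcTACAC
Rn7sk: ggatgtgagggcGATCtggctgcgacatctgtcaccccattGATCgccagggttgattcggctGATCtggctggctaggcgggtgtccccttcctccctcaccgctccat
Rny1: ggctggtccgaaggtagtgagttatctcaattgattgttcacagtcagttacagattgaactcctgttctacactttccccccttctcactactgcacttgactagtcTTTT
Rny3: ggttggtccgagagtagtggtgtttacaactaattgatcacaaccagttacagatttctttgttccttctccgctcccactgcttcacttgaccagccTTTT

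Rn7s1 and Rn7s2, both on chromosome 12 of GRCm38, are annotated with one and the same sequence, so reads of these genes cannot be told apart. GATC, which reads the same on both strands, occurred 3 times in Rn7sk, all within the first 110 bases, and 9.04% of the 4737 annotated transcripts within 30 bases of its length hold at least 3 copies. Both Y RNAs end in 4 T, as do 22.0% of the 2018 annotated transcripts of 100 to 120 bases. Rpph1 (chr14:50807449-50807767, minus strand) is 319 bases long.

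The summed share of these RNAs in all TPM was 35.4%, 37.1% and 44.6% in WT 1 to 3 and 51.7% and 37.5% in C3G null 1 and 2. C3G null 1 was the highest and WT 3 the next, while C3G null 2 lay among the WT samples, so the groups overlapped. Mean WT share was 39.1% (390512 ± 49221 TPM, SD, n = 3), mean C3G null share was 44.6% (446325 ± 100250 TPM, SD, n = 2), and the difference of 5.58 percentage points was smaller than the pooled SD of 7.05. It turned on one library, being -1.51 points without C3G null 1 and 12.7 points without C3G null 2. Most of the spread lay in 7SL. Without Rn7s1 and Rn7s2 the share was 14.8%, 16.0% and 15.5% in WT and 15.4% and 16.5% in C3G null. Because the measured short RNAs are only about 300 bases long, their share of TPM times length, which comes closer to a share of sequenced bases, was lower, at 12.0%, 13.2% and 17.3% in WT and 26.3% and 14.9% in C3G null.

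**Figure D1:**
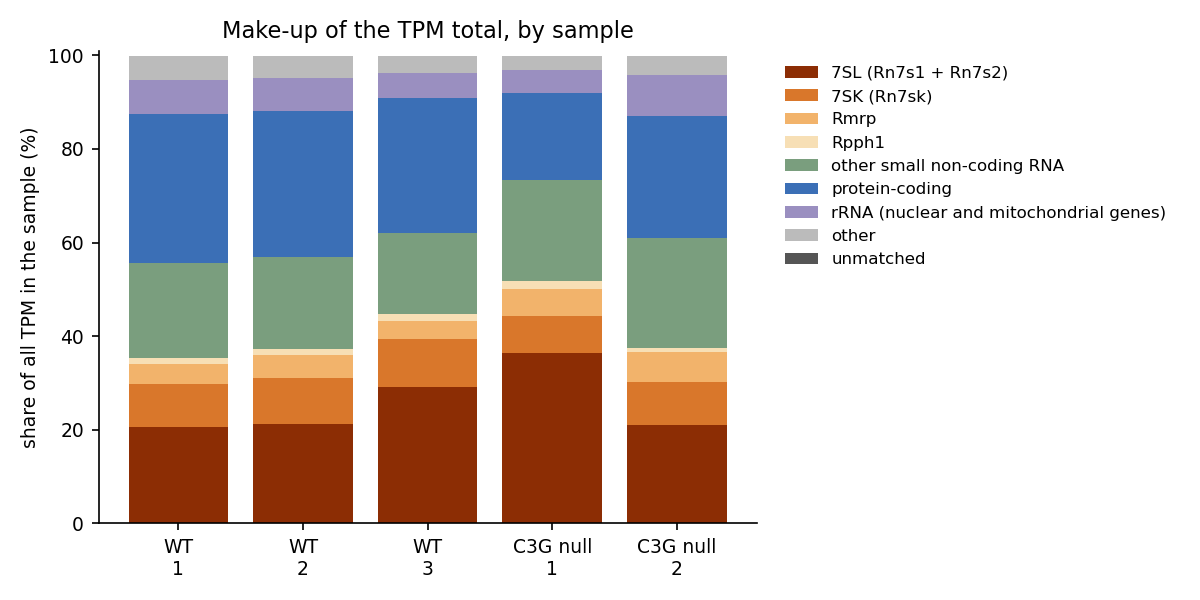
Make-up of the TPM total in each of the 5 samples, with the share of all TPM in percent on the vertical axis and one stacked bar per sample. The 7SL segment is tallest in C3G null 1 at 36.3% and WT 3 at 29.1%, and the protein-coding segment is shortest in C3G null 1 at 18.6%.

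The protein-coding share was 31.8%, 31.3% and 28.8% in WT and 18.6% and 26.0% in C3G null, and that of the other small non-coding RNAs was 20.3%, 19.7% and 17.4% in WT and 21.6% and 23.5% in C3G null. Since TPM add up to a fixed sum, a larger share for one RNA lowers all others in that sample. The median log2 difference of all 12518 tested genes between C3G null and WT was -0.55 for TPM as deposited. It was 0.00518 after median-of-ratios scaling, -0.20 per TPM of protein-coding genes and -0.88 per TPM of the other small non-coding RNAs. Less RNA per cell and fewer cells of a kind cannot be told apart in such bulk samples, and the sum over all RNAs is not an absolute amount.

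By mean TPM over the 5 samples Rn7s2, Rn7s1, Rn7sk and Rmrp ranked 1 to 4 among all gene symbols, ahead of the mitochondrial ribosomal RNA mt-Rnr2, and Rpph1 ranked 10. Rn7s1, Rn7s2 and Rn7sk held 99.90% to 99.94% of the TPM of the 562 genes annotated as misc_RNA, and the next of that class, Vaultrc5, reached at most 148.38 TPM. Rny1 and Rny3 were listed at 0 in every sample. The other 5 members were tested, and 1 (Rmrp) was higher with C3G null at the 0.05 threshold of adjusted p, beside 1.45% of all tested genes, while 0 were lower, beside 56.8% of all tested genes. The test was limma on log2(TPM + 1) with Benjamini-Hochberg adjustment over all tested genes, and at an unadjusted p under 0.05 the same counts were found. After median-of-ratios scaling 0 of the 5 were past the threshold in either direction, beside 14.1% of all tested genes higher and 16.6% lower, and 1, Rmrp, had an unadjusted p under 0.05.

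**Figure D2:**
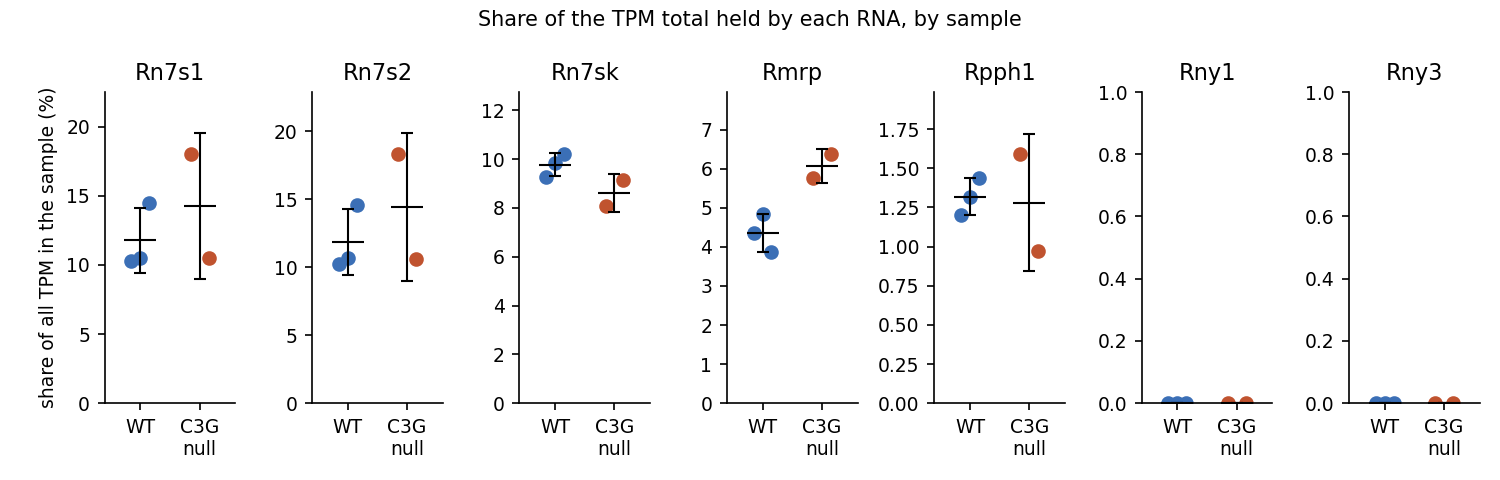
Share of all TPM in percent held by each of the 7 RNAs, with one point per sample, a horizontal line at the group mean and bars of 1 SD (WT n = 3, C3G null n = 2); each panel has its own axis from 0. The groups do not overlap for Rn7sk, lower in C3G null, and Rmrp, higher in C3G null, and Rny1 and Rny3 sit at 0 in all samples. The share of all tested genes with groups that do not overlap was not counted.

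Both 7SL genes had the highest mean TPM of the table and were the most variable of the set. Rn7s1 had 103075, 105066 and 145099 TPM in WT samples 1, 2 and 3, against 180123 and 104910 TPM in the 2 C3G null samples, or 10.3%, 10.5%, 14.5%, 18.0% and 10.5% of the total. Rn7s2 had 102330, 106527 and 146362 TPM in WT, against 183196 and 105511 TPM in null, or 10.2%, 10.7%, 14.6%, 18.3% and 10.6%. In both genes C3G null 1 was the highest and WT 3 the next, C3G null 2 was close to WT 1 and WT 2, and the groups overlapped. The ratio of Rn7s1 to Rn7s2 was between 0.983 and 1.01 in all samples and the split between them is uncertain. Summed, 7SL held 20.5%, 21.2% and 29.1% of TPM in WT and 36.3% and 21.0% in C3G null.

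For Rn7s1, mean TPM were 117747 ± 23709 in WT (SD, n = 3) and 142516 ± 53183 in null (SD, n = 2). The log2 difference of Rn7s1 came to 0.24 with a standard error of 0.176 (adjusted p = 0.205 from limma), and that of Rn7s2 to 0.25 with a standard error of 0.175 (adjusted p = 0.189 from limma). The sum of both gave 0.25 (standard error 0.155, adjusted p = 0.144 from limma). After median-of-ratios scaling the differences were 0.94 (adjusted p = 0.395 from limma) and 0.95 (adjusted p = 0.394 from limma). One null library set the sign, since without C3G null 1 the difference was -0.15 for each gene, and without C3G null 2 it was 0.63 for Rn7s1 and 0.65 for Rn7s2. With a pseudocount of 5 both genes were past the threshold at the same differences (adjusted p = 0.0331 and 0.0275 from limma). With the replicate number as a block, on the 4 samples numbered 1 and 2 in both groups, the values were 0.40 (adjusted p = 0.000618 from limma) and 0.41 (adjusted p = 0.000378 from limma), although the numbers are not known to pair the samples and WT 3, the highest WT sample, is not in that fit. The standard errors use a spread pooled across genes of similar level, and the pooled SD of the single genes on the log2 scale was 0.391 for Rn7s1 and 0.399 for Rn7s2.

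7SK RNA was the steadiest of the set. Rn7sk had 92778, 98427 and 101824 TPM in the WT samples, against 80561 and 91645 TPM in the null samples, which is 9.28%, 9.84% and 10.2% of the total in WT and 8.06% and 9.16% in C3G null. Both null samples lay below all WT samples, C3G null 2 only narrowly. How many of all tested genes show such a separation was not counted, and 56.8% of them were lower at the threshold for TPM as deposited. Mean TPM were 97676 ± 4569 in WT (SD, n = 3) and 86103 ± 7838 in null (SD, n = 2), and the log2 difference of -0.18 was not past the threshold (standard error 0.181, adjusted p = 0.348 from limma). Its own pooled SD was 0.0940 on the log2 scale, the smallest of the 5 measured RNAs. The sign depended on the scale, with 0.52 after median-of-ratios scaling (adjusted p = 0.554 from limma), 0.29 per protein-coding TPM (adjusted p = 0.615 from limma) and -0.42 per TPM of other small RNAs (adjusted p = 0.0656 from limma).

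Within a sample, the ratio of summed 7SL to 7SK does not depend on the scaling. It was 2.21, 2.15 and 2.86 in WT and 4.51 and 2.30 in C3G null. C3G null 1 stood highest and C3G null 2 lay within the WT range, and the exact permutation test gave p = 0.4 (two-sided). With 3 samples against 2 this test cannot give a p below 0.2.

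RNase MRP RNA was the one member called higher. Rmrp had 43472, 48278 and 38772 TPM in the WT samples, against 57451 and 63665 TPM in the null samples, or 4.35%, 4.83% and 3.88% of the total in WT and 5.75% and 6.37% in C3G null. Both null samples lay above all WT samples, at 1.32 and 1.46 times the WT mean. Such a separation was not counted over all tested genes. Mean TPM were 43507 ± 4754 in WT (SD, n = 3) and 60558 ± 4394 in null (SD, n = 2), a log2 difference of 0.48 (standard error 0.193, adjusted p = 0.0271 from limma), against a pooled SD of the gene of 0.143. The direction held in all 16 alternative analyses (0.24 to 1.18). Those that changed only the filter, the trend or the pseudocount left the difference at 0.48 and could not have turned its sign. The call was lost in 11 of the 16, including each analysis with 1 of the 3 WT samples left out (adjusted p = 0.0774 to 0.0936 from limma). Without C3G null 1 the difference was 0.55, and without C3G null 2 it was 0.41. After median-of-ratios scaling it stood at 1.18 with a standard error of 0.481 (adjusted p = 0.112 from limma), and per TPM of other small RNAs it was 0.24 (adjusted p = 0.290 from limma).

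The annotation holds Rmrp as 2 nested models on the minus strand of chromosome 4, and the symbol's value is their sum. The shorter model of 271 bases (ENSMUSG00000088088) held 89.4% to 95.8% of the TPM of Rmrp, and the longer one of 281 bases (ENSMUSG00000115420), with 5 more bases at each end, held 4.25% to 10.6%. Taken by gene identifier, the shorter model differed by 0.48 (adjusted p = 0.0346 from limma) and the longer one by 0.42 (adjusted p = 0.121 from limma). Of the 271 bases, 159 lie in the gene Ccdc107 and 124 in its exons, on the opposite strand, so without strand information reads there cannot be assigned with certainty. Ccdc107 itself went from 5.27 ± 0.236 TPM in WT (SD, n = 3) to 3.16 ± 0.799 TPM in null (SD, n = 2), a log2 difference of -0.61 (adjusted p = 0.0204 from limma).

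RNase P RNA showed no difference between the groups that passed the test. Rpph1 had 12013, 13157 and 14356 TPM in the WT samples, against 15881 and 9706 TPM in the null samples, or 1.20%, 1.32% and 1.44% of the total in WT and 1.59% and 0.971% in C3G null. The null samples were the highest and the lowest of the 5. Mean TPM were 13175 ± 1171 in WT (SD, n = 3) and 12794 ± 4366 in null (SD, n = 2), with a log2 difference of -0.082 (standard error 0.219, adjusted p = 0.735 from limma) and a pooled SD of 0.308. Its sign turned under other scales, to 0.62 after median-of-ratios scaling (adjusted p = 0.342 from limma) and 0.40 per protein-coding TPM (adjusted p = 0.448 from limma), and it was 0.27 without C3G null 2.

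The RNA subunits of both enzymes share most of their proteins, so their ratio within a sample was taken as well. Rmrp over Rpph1 was 3.62, 3.67 and 2.70 in WT and 3.62 and 6.56 in C3G null, with C3G null 2 far above the rest and the groups overlapping (exact permutation p = 0.6, two-sided). Rn7sk over Rmrp was 2.13, 2.04 and 2.63 in WT and 1.40 and 1.44 in C3G null. Here the groups did not overlap. The means were 2.27 ± 0.315 (SD, n = 3) and 1.42 ± 0.0263 (SD, n = 2), a log2 difference of -0.66 with an exact permutation p = 0.2 (two-sided), the smallest this design allows. Adjusted over the 3 ratios by the Benjamini-Hochberg method, the exact permutation p was 0.6 for each.

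**Figure D3:**
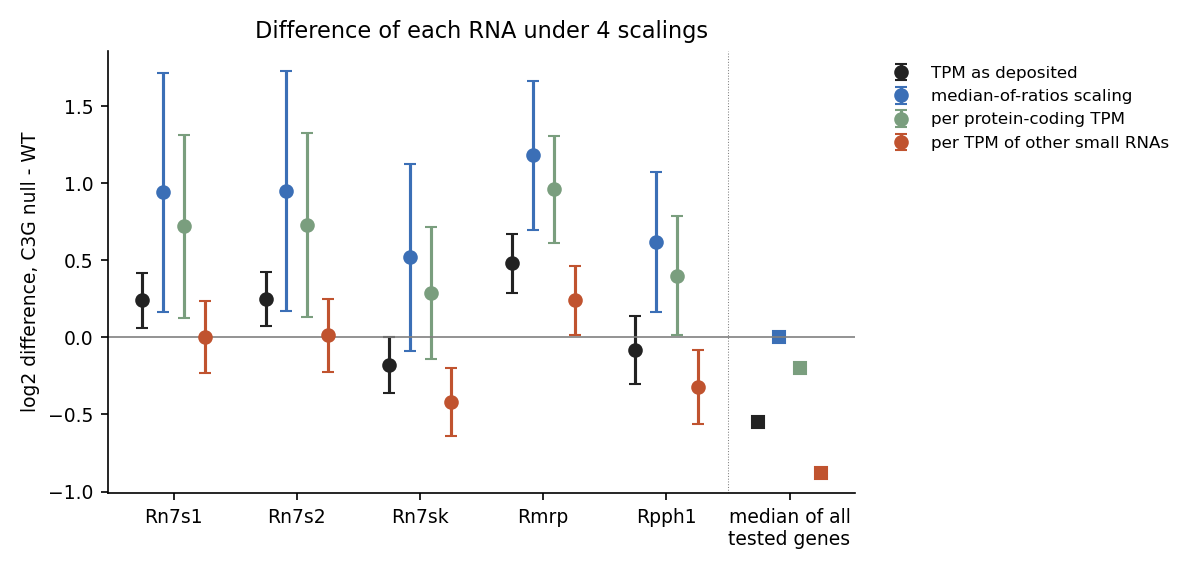
Log2 difference between C3G null and WT for the 5 measured RNAs under 4 scalings of the samples, with bars of 1 standard error from limma, and squares for the median of all tested genes under the same scaling. Rmrp is above 0 under all 4 scalings (0.24 to 1.18), and Rn7sk and Rpph1 change sign. Each RNA lies above the median of all tested genes under each scaling, an order that division by 1 factor per sample largely keeps.

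The Y RNAs could not be judged from these data. Rny1, of 112 bases, and Rny3, of 102 bases, were listed at 0 TPM in all 5 samples, and no fold or test was computed. No annotated transcript shorter than 122 bases had a value in any sample: 0 of 4591 such transcripts were above 0. Per sample the shortest transcript with a value had 122 to 124 bases. In the 30 bases of length from 122 upwards 293 of 1574 transcripts (18.6%) had a value in at least 1 sample, and in the 30 below it 0 of 2592 did. Both Y RNAs are under this limit, and their zeros are those of every RNA of their length in the table.

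**Figure D4:**
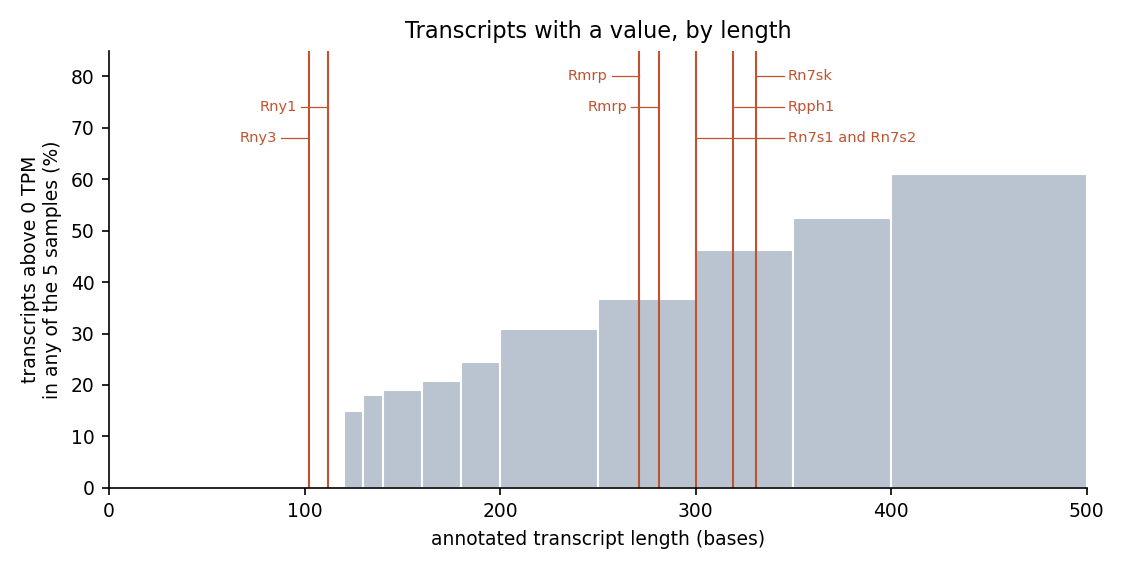
Percent of annotated transcripts above 0 TPM in at least 1 of the 5 samples, by annotated length in bases, with vertical lines at the lengths of the 7 RNAs (Rmrp at both of its models). The bars are at 0 up to 120 bases, where Rny3 and Rny1 lie, and reach 36.8% between 251 and 300 bases and 46.2% between 301 and 350 bases, where the other members lie.

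Rpph1 lies on chromosome 14 among genes that were lower in C3G null cells. That this region was lower was known from these data beforehand, so the counts and p-values given for it are a description. In the 2 Mb to each side 26 protein-coding genes were tested, and 25 were lower and 0 higher for TPM as deposited, with a median log2 difference of -1.19 against -0.57 over all 10832 tested protein-coding genes. After median-of-ratios scaling 22 were lower and 1 higher, and the median was -0.64. Of all tested genes 56.8% were lower for TPM as deposited and 16.6% after scaling. The exception for TPM as deposited was Ndrg2, at -0.24 (adjusted p = 0.338 from limma). Rpph1, at -0.082, was above all 26, although no test of that difference was made. Parp2, a poly(ADP-ribose) polymerase of DNA repair on the other strand, whose lower coordinate is 392 bases above that of Rpph1, fell from 15.1 ± 2.16 TPM in WT (SD, n = 3) to 5.32 ± 1.70 TPM in null (SD, n = 2), a log2 difference of -1.37 (adjusted p = 1.11e-06 from limma), and of -0.75 after median-of-ratios scaling (adjusted p = 0.00117 from limma). Ccnb1ip1, on the other side, fell from 9.48 ± 0.962 to 4.50 ± 1.15 TPM, a log2 difference of -0.94 (adjusted p = 0.000759 from limma), and of -0.34 after median-of-ratios scaling (adjusted p = 0.00779 from limma). Ccnb1ip1 overlaps Rpph1 on the same strand, with 284 of the 319 bases of Rpph1 in the gene and 233 in its exons, so reads in that stretch are uncertain for Ccnb1ip1, the far less abundant of the pair.

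**Figure D5:**
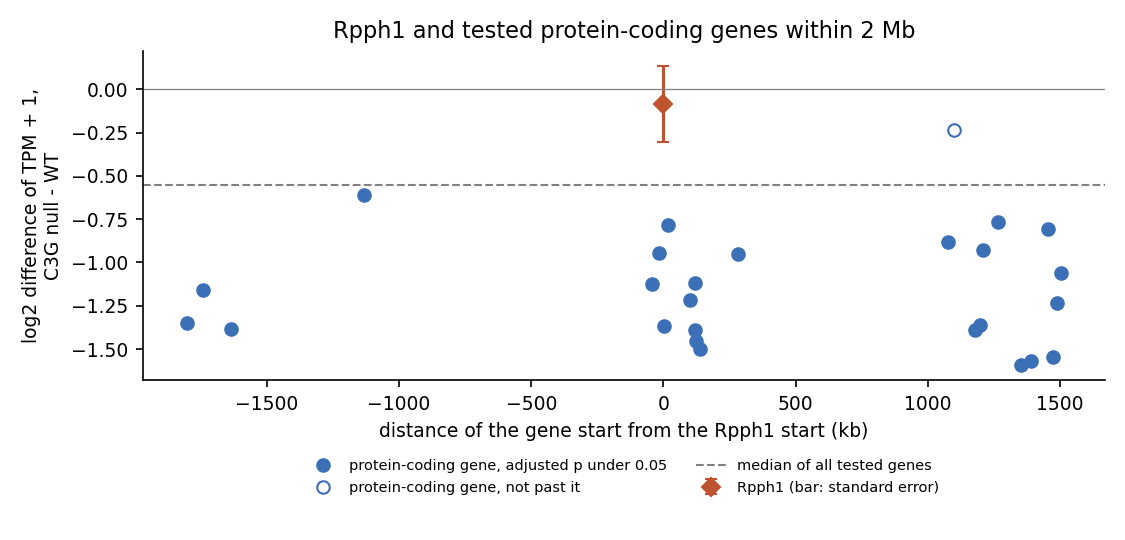
Log2 difference of TPM + 1 between C3G null and WT for Rpph1 (diamond, bar of 1 standard error) and the 26 tested protein-coding genes within 2 Mb, by distance of the gene start in kb; open circle, not past an adjusted p of 0.05; dashed line, median of all tested genes at -0.55. Rpph1 is above all of these genes, and 25 of them are lower in C3G null.

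For the other members the genes within 100 kb were compared in the same way, with no test of the difference. There the tested neighbours had a median log2 difference of -0.45 for Rn7s1 (8 genes, -0.63 to -0.25), -0.61 for Rn7s2 (3 genes, -0.93 to -0.43) and -0.79 for Rmrp (8 genes, -1.76 to -0.49), and each of these RNAs was above all of its neighbours, as it was above the median of -0.55 of all tested genes. For Rn7sk it was -0.56 (3 genes, -0.66 to -0.14), and the glutathione transferase gene Gsta4, whose lower coordinate is 7471 bases above that of Rn7sk, was above Rn7sk, at -0.14 (adjusted p = 0.657 from limma) against -0.18, so Rn7sk lay within the range of its neighbours. None of the neighbours of these 4 RNAs was higher at the threshold, and the number lower was 4 of 8, 2 of 3, 7 of 8 and 2 of 3 in the same order with Rn7sk last, beside 56.8% of all tested genes. By distance between lower coordinates, the nearest tested protein-coding gene to Rn7s1 was Rps29, a ribosomal protein gene, with -0.25 (adjusted p = 0.383 from limma). To Rn7s2 it was Arf6, a small GTPase, with -0.61 (adjusted p = 0.0406 from limma). The upper end of Nemf, at 69357165, lies nearer to Rn7s2 than Arf6 does, and Nemf had -0.93 (adjusted p = 0.00147 from limma). Around Rny1 and Rny3 the 3 tested neighbours had a median of -0.57, 2 of them lower. Only genes with values were tested, so these neighbours do not bear on the zeros of the Y RNAs.

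The protein partners of these RNAs and general factors of RNA polymerase III transcription were counted in lists written from general knowledge. Not all of these factors need act on the members. Of 62 tested genes 30 were lower and 0 higher for TPM as deposited, with a median log2 difference of -0.55, the same as that of all tested genes, and 48.4% lower is under the 56.8% of all genes. After median-of-ratios scaling 4 of the 62 were lower and 9 higher, with a median of 0.083, beside 16.6% of all tested genes lower and 14.1% higher. The count of 30 was 3 without WT 1 or without WT 2, 17 without WT 3, 9 without C3G null 1 and 60 without C3G null 2.

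Of 10 genes of the signal recognition particle and its receptor, which work with 7SL, 6 were lower and 0 higher, with a median log2 difference of -0.68. The largest were Srp54b, from 18.2 ± 1.58 to 8.95 ± 1.35 TPM (-0.95, adjusted p = 0.00131 from limma), Srp54c (-0.87, adjusted p = 0.00261 from limma) and Srp54a (-0.82, adjusted p = 0.00765 from limma), which are close copies of the gene of the signal peptide-binding subunit and may share reads. After median-of-ratios scaling 1 of the 10 was lower, Srp54b at -0.30 (adjusted p = 0.0453 from limma), and 1 higher, the receptor gene Srpr at 0.29 (adjusted p = 0.0169 from limma).

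The 7SK particle and P-TEFb had a median of -0.55 over 7 genes, with 0 higher and 3 lower (42.9%, beside 56.8% of all genes). They were Cdk9, the kinase of P-TEFb, from 21.2 ± 2.93 to 12.7 ± 4.41 TPM (-0.73, adjusted p = 0.0148 from limma), Mepce, which caps 7SK (-0.60, adjusted p = 0.0348 from limma), and Hexim1, the P-TEFb inhibitor (-0.55, adjusted p = 0.0493 from limma). None of the 7 was past the threshold after median-of-ratios scaling.

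For the 11 protein genes of RNase P and RNase MRP the median was -0.41, and 0 were higher. Of these, 1 was lower (9.09%, beside 56.8% of all genes). This was Pop5, from 35.6 ± 0.428 to 21.4 ± 1.27 TPM (-0.71, adjusted p = 0.0202 from limma). After median-of-ratios scaling 3 were higher and 0 lower, namely Rpp25 at 0.55 (adjusted p = 0.0109 from limma), Rpp40 at 0.42 (adjusted p = 0.00720 from limma) and Rpp30 at 0.33 (adjusted p = 0.0130 from limma). The RNAs of the 2 enzymes, Rmrp at 1.18 and Rpph1 at 0.62, did not pass on that scale. For the Y RNA-binding proteins, Ssb, which encodes La, fell from 67.5 ± 6.11 to 35.7 ± 12.0 TPM (-0.94, adjusted p = 0.00310 from limma) and Trove2, which encodes Ro60, fell by 0.59 on the log2 scale (adjusted p = 0.0160 from limma), and neither was past the threshold after median-of-ratios scaling.

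The subunits of RNA polymerase III numbered 13, with 7 lower (53.8%, beside 56.8% of all genes), 0 higher and a median of -0.56. Polr3d stood out with a fall from 19.1 ± 2.35 TPM in WT (SD, n = 3) to 4.80 ± 1.26 TPM in null (SD, n = 2), a log2 difference of -1.80 (adjusted p = 7.49e-11 from limma) that was kept after median-of-ratios scaling at -1.18 (adjusted p = 0.000305 from limma). Polr3d also lies on chromosome 14, starting at 70438757 of GRCm38, outside the window taken around Rpph1. Polr3a, at -0.54 (adjusted p = 0.0548 from limma), and Rpp14, at -0.46 (adjusted p = 0.104 from limma), lie on that chromosome too and did not pass. Whether position bears on the fall of Polr3d was not tested. After Polr3d came Polr3e at -0.71 (adjusted p = 0.0145 from limma) and Polr3f at -0.63 (adjusted p = 0.0235 from limma), and neither was past the threshold after scaling. On that scale Polr3d was the 1 lower subunit and 2 were higher, Polr3gl at 0.52 (adjusted p = 0.0308 from limma) and Polr3c at 0.26 (adjusted p = 0.0415 from limma). Of 19 initiation factors and regulators 11 were lower (57.9%, beside 56.8% of all genes) and 0 higher, with a median of -0.65. Gtf3c1, the largest subunit of TFIIIC, which binds promoters inside polymerase III genes, fell from 19.7 ± 2.56 to 8.10 ± 1.84 TPM (-1.19, adjusted p = 4.46e-05 from limma) and was lower after median-of-ratios scaling too, at -0.55 (adjusted p = 0.00247 from limma). Gtf3c6, of the same complex, differed by -0.89 (adjusted p = 0.00313 from limma) and by -0.24 after scaling (adjusted p = 0.0457 from limma). These were the 2 lower of the 19 after scaling, and 3 were higher, namely Zfp143 at 0.34 (adjusted p = 0.00996 from limma), Snapc5 at 0.33 (adjusted p = 0.0474 from limma) and Tbp at 0.25 (adjusted p = 0.0483 from limma).

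Other short RNAs were set beside the members. Of the 5 tested, 3 were higher and 0 lower, beside 1.45% of all tested genes higher. With median-of-ratios scaling 3 were again higher, beside 14.1% of all tested genes. Vaultrc5, the vault RNA, is also made by RNA polymerase III. It had 41.21, 31.5 and 77.32 TPM in the WT samples, against 148.38 and 93.84 TPM in the null samples. Its log2 difference was 1.32 (adjusted p = 2.29e-05 from limma). Both null samples lay above all WT samples, and how many of all tested genes separate in this way was not counted. Rnu12, the U12 RNA of the minor spliceosome, which RNA polymerase II makes, had 54.85, 50.81 and 99.85 TPM in WT, against 225.0 and 143.28 TPM in null (1.44, adjusted p = 3.58e-06 from limma). After median-of-ratios scaling both passed too, at 2.01 (adjusted p = 0.0290 from limma) and 2.14 (adjusted p = 0.0182 from limma). In both, as in 7SL, C3G null 1 was the highest sample and WT 3 the highest of the WT samples. Rn7s6, the 7SL relative, had 3.02, 1.72 and 4.5 TPM in WT, against 4.62 and 4.96 TPM in null (0.56, adjusted p = 0.0261 from limma, and 1.12 after median-of-ratios scaling, adjusted p = 0.0381 from limma), a level far under that of 7SL, with which it may share reads. The telomerase RNA Terc, at 0.12 (adjusted p = 0.584 from limma), and the brain RNA Bc1, at -0.16 (adjusted p = 0.529 from limma), did not pass, and Rnu11, the U11 RNA, was listed at 0 in all samples.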

How the data were processed

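RNA sequencing of 3 WT and 2 C3G null samples was analysed from the deposited table of TPM values for 142647 Ensembl transcripts, which the authors made from paired-end reads checked with FastQC and aligned to GRCm38 with STAR. The submitters' processing notes name bcl2fastq 2.20, FastQC 0.11.7, STAR 2.5.1b and RSEM 1.2.31. Of the transcripts 141524 were matched to GENCODE M21 and 1123, with 0.0579% to 0.120% of TPM, were not. TPM were summed by gene symbol, and samples summed to between 999998 and 1000001. Read counts were not analysed here, so the depth is unknown and the DESeq2 test of the paper was not repeated.

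Gene symbols with at least 1 TPM in at least 2 samples (12518) entered a two-sided limma test (limma 3.58.1, R 4.3.3) of log2(TPM + 1) that models the variance as a trend of the level, with Benjamini-Hochberg adjustment over all of them and a threshold of 0.05. The pseudocount of 1 shrinks differences of low genes. The prior degrees of freedom were infinite, so p-values of TPM as deposited rest on a variance shared between genes. Ratios were compared by exact permutation tests with scipy 1.17.1. Tables and figures used Python 3.11.15, pandas 2.3.3 and matplotlib 3.10.9. The fit was also run on simulated data, with the same spread for every gene and as many genes raised as lowered. That setting differs from these data, so the run does not bear on the p-values of the members.

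The members and gene lists were chosen with earlier results of these data known. Named genes were the members and at most 3 genes past the threshold per list. To these were added the nearest tested protein-coding gene on each side of a member by lower coordinate (not all are given). The 2 tested genes of at least 10 TPM with the most similar profile were named too. Genes past the threshold after scaling, Ndrg2 and genes of the list of other small RNAs that did not pass were named after their values were seen. The alternatives tried were a smaller (0.1) and a larger (5) pseudocount, dropping the filter or raising it to 5 TPM, 3 scalings, no trend, a replicate block, each sample left out, 7SL summed, and sums by gene identifier. For the share, TPM times length and leaving out the most abundant member were tried. The sequence of 7SL is not reported here.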

Additional observations from a re-analysis of the deposited data

How the results depend on the processing

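The difference of Rn7sk was 0.52 after median-of-ratios scaling and 0.29 per protein-coding TPM, against -0.18 for TPM as deposited, and that of Rpph1 was 0.62 and 0.40 against -0.082. Leaving out 1 sample gave -0.15 to 0.63 for Rn7s1, -0.15 to 0.65 for Rn7s2 (lowest without C3G null 1, highest without C3G null 2) and -0.44 to 0.27 for Rpph1. The number of members called higher was 1, and it was 0 without the trend, without the filter, under each of the 3 scalings and with any 1 sample left out (0 to 0), and 3 with a pseudocount of 5 and with the replicate block, where Rmrp gave 0.40 (adjusted p = 0.0143 from limma) beside both 7SL genes. Partner genes called lower were 30, and 4 after median-of-ratios scaling, 15 per protein-coding TPM, 60 per TPM of other small RNAs, 0 without the filter, 1 with the replicate block and 3 to 60 with 1 sample left out (3 without WT 1 or WT 2, 17 without WT 3, 9 without C3G null 1, 60 without C3G null 2). Partner genes called higher were 0, and 9 after median-of-ratios scaling. The share of the members differed by 5.58 points, and by -1.51 to 12.7 points with 1 sample left out. The cause of these shifts was not tested. Deviations from the group mean of samples with the same number had a correlation of r = -0.151 for number 1 and 0.174 for number 2. With 2 null samples their deviations mirror each other, so the 2 values are not separate and cannot decide whether the numbers pair samples. The replicate block rests on a shared number only. With a null sample left out, the lone null sample was assumed to vary like the WT samples. Depth is unknown, and RNAs under 122 bases had no values.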

Other observations

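The genes whose profile over the 5 samples was most like that of each member were sought among 4380 tested genes of at least 10 TPM, by the root mean square difference of centred log2(TPM + 1), as a description of samples that share one fixed TPM sum. Closest to Rn7sk was Rpl41, a ribosomal protein gene, with a difference of 0.0204 and 1486, 1582 and 1628 TPM in WT and 1339 and 1483 TPM in C3G null, followed by Ntan1 at 0.0267. Closest to Rn7s1 and Rn7s2 was Snhg20, a snoRNA host gene, at 0.0757 and 0.0827, with 20.4, 18.5 and 29.0 TPM in WT and 35.1 and 21.8 TPM in C3G null, followed by the snoRNA gene Gm23442 at 0.126 and 0.130. For Rmrp they were Mrpl33, a mitochondrial ribosomal protein gene, at 0.0783, and Rnu1b1, a U1 RNA gene, at 0.114 with 2664, 2828 and 2461 TPM in WT and 2895 and 3669 TPM in C3G null. For Rpph1 they were mt-Nd3 at 0.0976 and the snoRNA gene Gm25394 at 0.0980.

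Between members the same measure was 0.0121 for Rn7s1 and Rn7s2, 0.194 for Rpph1 and Rn7s1, 0.348 for Rmrp and Rn7sk, and 0.413, 0.416 and 0.418 for Rmrp with Rn7s1, Rn7s2 and Rpph1.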
